A study of Mus musculus with 30 samples.

Results

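Cultured telencephalic neurons from embryos without Xbp1 were exposed to BDNF for 48 h and compared with unstimulated dishes of the same genotype. The comparison was chosen by sample title and takes 10 of the 30 arrays of the series, 5 from knockout dishes after 48 h of BDNF and 5 from knockout basal dishes. All 10 dishes were seeded from 1 pool of telencephalon, the embryonic forebrain region that forms cortex and basal ganglia, of 6 Xbp1 -/- embryos at embryonic day 12.5, from intercrosses of Xbp1 +/- mice. The pool was divided over 15 dishes kept at low density in serum-free medium. The 48 h dishes received BDNF at 100 ng/ml on day 3 in vitro and were lysed on day 5, whereas the basal dishes received none and were lysed on day 4. No untreated knockout dish of day 5 is among the samples, so BDNF and 1 more day in culture cannot be told apart. Where the knockout is set beside its own 24 h dishes (BDNF from day 3, lysed on day 4) or beside Xbp1 +/+ dishes (1 pool of 4 littermate embryos, treated and lysed in the same way), those groups also hold 5 dishes each. Dishes of 1 pool are not separate animals, so every p-value here measures the spread between dishes only. Each genotype comes from 1 pool, so genotype and pool cannot be told apart.

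BDNF is a neurotrophin that binds the receptor tyrosine kinase TrkB and signals through the ERK, phosphoinositide 3-kinase and phospholipase C pathways. In developing forebrain it is known for promoting the maturation of GABAergic interneurons, including their neuropeptides and GABA-synthesizing enzymes. XBP1 is a transcription factor that is activated by splicing when unfolded proteins accumulate in the endoplasmic reticulum (ER), and it drives genes for protein folding, translocation and secretion.

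RNA was measured on Affymetrix Mouse Genome 430A 2.0 arrays, 1 per dish. Signals are given as log2 of the signal divided by the median of its array, so that a level of 0 is the array median and a change is a difference in log2, written ± SE from limma with n = 5 dishes per group. A gene is said to have risen or fallen where its adjusted p was under 0.05 over the 7436 tested genes. Because these are bulk samples, fewer cells of a type and less RNA per cell cannot be told apart. The telencephalon markers Lhx2, Dlx1, Dlx2, Six3 and Tbr1 were bright enough to be tested, with basal means of 1.16, 1.71, -0.56, 0.75 and 0.35, while Gsx2 was at -2.41.

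The 48 h arrays differed from the basal ones before any gene was compared. The median signal was 103 ± 6.77 intensity units in basal and 122 ± 11.5 in 48 h dishes (SD, n = 5; exact permutation test, two-sided, p = 0.00794, the smallest it can give). The ratio of 3' to 5' signal for Gapdh, which rises when RNA is degraded or copied short, was 2.73 ± 0.10 in basal and 2.39 ± 0.21 in 48 h dishes (exact permutation test, two-sided, p = 0.0159), with replicates 3 and 4 lowest at 2.17 and 2.20. The 48 h replicates 3 to 5 also lay apart from replicates 1 and 2 on principal component 3. These measures move with the comparison, and their part in the results was not tested beyond the values without those arrays or with the ratio as a covariate that are given below.

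Xbp1 itself was read by probes that detected transcript in the knockout. Its brightest probe set gave 4.53, 4.64, 4.68, 4.70 and 4.70 in the 5 basal dishes and 4.74, 4.67, 4.76, 4.65 and 4.87 after 48 h. For Xbp1 the groups overlapped, and the difference of 0.09 ± 0.06 did not pass the threshold (adjusted p = 0.284). Its 3 other probe sets differed by -0.01, -0.01 and -0.21 and did not pass either. The deleted segment of Xbp1 is not named in the labels, so these probes may lie outside it and do not check the genotype.

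After 48 h, 2147 of 7436 tested genes had changed (28.9%): 1443 rose (19.4%) and 704 fell (9.47%). At least 1.5-fold changes were fewer, with 213 genes higher (2.86%) and 51 lower (0.686%). The basal and 48 h dishes did not overlap for 1391 genes (18.7%). Counts of list members below stand against the 19.4% and 9.47% of all tested genes that rose and fell. The balance of higher and lower calls depended on the scaling: 67.2% of the called genes were higher after division by the array median, 47.6% after quantile normalization, 41.5% after scaling to the 75th percentile and 98.8% with the values as deposited, which shift the median of all genes to 0.293 from 0.045. It was 57.3% with 48 h replicates 1 and 2 alone and 57.5% with a Gapdh ratio covariate, and the number of called genes then fell to 1193 and 992. The first setting leaves 2 dishes in the 48 h group, and the Gapdh ratio differed between the groups compared. Both settings therefore make a change harder to detect. With replicates 3 to 5 alone 2114 genes were called, 72% of them higher. Large rises are therefore read below as changes relative to the array median, and counts of small changes are given under the settings that move them most. The scatter of change against adjusted p shows that the largest changes were rises.

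**Figure D1:**
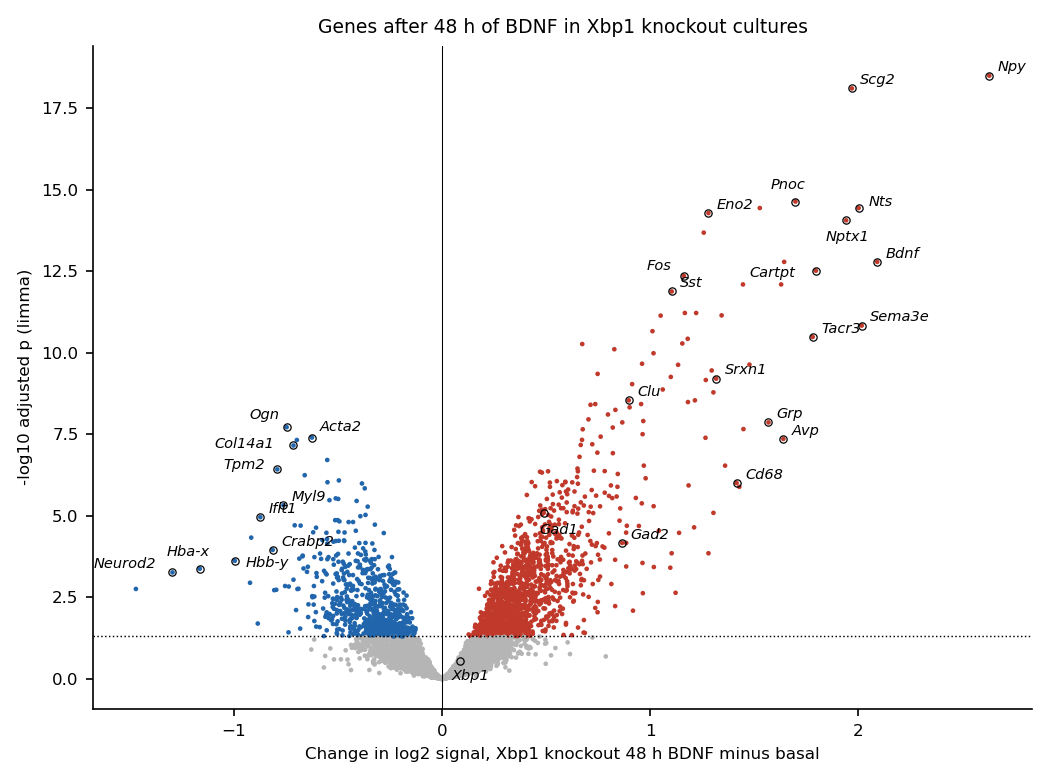
Each point is 1 of 7436 tested genes, with the change in log2 signal between knockout 48 h and basal dishes on the x axis and -log10 of the adjusted p from limma on the y axis. Red genes were higher and blue genes lower past the threshold (dotted line), circled genes are labelled, and the right arm reaches 2.63 for Npy where the circled falls end at -1.30 for Neurod2.

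Genes for secreted neuropeptides had the largest median change of the gene lists examined. Of 25 measured neuropeptide precursors, 14 were bright enough to be tested, 12 rose and none fell, with a median change of 1.37 against 0.045 over all tested genes. The same count of 12 was found with 48 h replicates 1 and 2 alone, with replicates 3 to 5 alone, with a Gapdh ratio covariate and under each of the 3 other scalings; with replicates 3 to 5 alone 2 members also fell. A gene can pass the filter on dim signals through the groups in which it is high. This count and those of the lists below therefore describe the tested members only. With no filter, 14 of all 25 peptide precursors rose. The peptide genes with the largest rises and the processing genes described after them include 5 whose promoters hold the cyclic AMP response element (CRE), the palindrome TGACGTCA to which CREB binds, within the 250 bases before the start. CREB is a transcription factor that BDNF signalling is known to activate. The 5 promoter stretches are shown because these genes all rose, with the CRE in capitals, 5' to 3' on the strand of the gene, from RefSeq on the assembly GRCm38.p6. They lie at chr1:79440027-79440156 (Scg2, minus strand), chr13:99900684-99900813 (Cartpt, minus strand), chr13:75089727-75089856 (Pcsk1, plus strand), chr16:23890845-23890974 (Sst, minus strand) and chr2:132781512-132781641 (Chgb, plus strand), each ending at the base before the start.
Scg2: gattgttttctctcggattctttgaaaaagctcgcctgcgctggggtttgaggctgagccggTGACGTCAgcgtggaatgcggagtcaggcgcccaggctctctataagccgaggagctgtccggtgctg
Cartpt: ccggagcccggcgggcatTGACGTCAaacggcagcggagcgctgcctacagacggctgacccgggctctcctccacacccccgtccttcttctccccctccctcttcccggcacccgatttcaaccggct
Pcsk1: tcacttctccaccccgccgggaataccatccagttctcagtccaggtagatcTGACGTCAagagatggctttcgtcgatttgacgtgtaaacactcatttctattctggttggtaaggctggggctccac
Sst: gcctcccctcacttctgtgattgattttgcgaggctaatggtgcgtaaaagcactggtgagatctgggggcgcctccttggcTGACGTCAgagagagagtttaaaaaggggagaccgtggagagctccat
Chgb: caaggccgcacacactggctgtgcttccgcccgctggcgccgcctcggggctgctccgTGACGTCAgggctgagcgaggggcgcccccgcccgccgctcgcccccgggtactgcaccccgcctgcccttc

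The CRE begins 68 bases before the start in Scg2, 112 in Cartpt, 78 in Pcsk1, 48 in Sst and 72 in Chgb. On either strand of the window of 250 bases before the start, 1.55% of 32851 promoters hold it. Counted by gene, these are 1.77% of 27025 genes with a promoter sequence and 200 of the 6096 tested ones (3.28%). Genes that rose held it in 52 of 1176 cases (4.42%) and genes that fell in 8 of 558 (1.43%). Among the tested members with a promoter sequence, 2 of 11 peptide precursors and 3 of 13 granin and processing genes held it. These are descriptions of letters in the window, with no test and no measure of binding.

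Npy, which encodes neuropeptide Y of cortical and striatal interneurons, read 0.21, 0.42, 0.46, 0.49 and 0.25 in basal and 3.08, 3.17, 2.92, 2.74 and 3.07 in 48 h dishes. The lowest 48 h dish lay far above the highest basal dish, and the rise of 2.63 ± 0.10 (6.19-fold, adjusted p = 3.22e-19) was the largest of all tested genes. Nts, the neurotensin precursor, read 1.34, 1.45, 1.76, 1.77 and 1.41 and then 3.66, 3.55, 3.49, 3.31 and 3.74, a rise of 2.00 ± 0.11 (4.01-fold, adjusted p = 3.67e-15). Cartpt, the precursor of the CART peptides, read 0.04, 0.17, 0.58, -0.01 and 0.39 in basal and 2.36, 1.71, 1.83, 1.99 and 2.27 in 48 h dishes, up by 1.80 ± 0.12. For both genes all 48 h dishes were above all basal dishes. Pnoc, which encodes nociceptin, went from 1.49, 1.27, 1.58, 1.27 and 1.51 to 3.10, 3.21, 3.13, 3.14 and 3.03, up by 1.70 ± 0.09. Sst, the somatostatin precursor and a marker of an interneuron class, read 2.77, 3.01, 2.88, 3.00 and 3.08 and then 3.89, 4.06, 4.13, 4.06 and 4.12. Its dishes did not overlap and its rise was 1.10 ± 0.08 (2.15-fold, adjusted p = 1.33e-12). The precursors of substance P (Tac1, 1.43 ± 0.19), PACAP (Adcyap1, 1.30 ± 0.13), galanin (Gal, 1.02 ± 0.15) and enkephalin (Penk, 0.97 ± 0.10) rose without overlap as well. So did Avp (vasopressin, 1.64 ± 0.19) and Grp (gastrin-releasing peptide, 1.57 ± 0.17), both of which lay below the array median in every basal dish, with means of -1.30 and -1.25. Cck, the cholecystokinin precursor, rose by 0.47 ± 0.11 with overlapping dishes. The remaining tested members did not pass, with -0.38 ± 0.18 for Oxt (adjusted p = 0.105) and -0.35 ± 0.20 for Hcrt (adjusted p = 0.194). Vip, Pdyn, Cort, Tac2 and the other precursors left out as too dim were not tested.

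**Figure D2:**
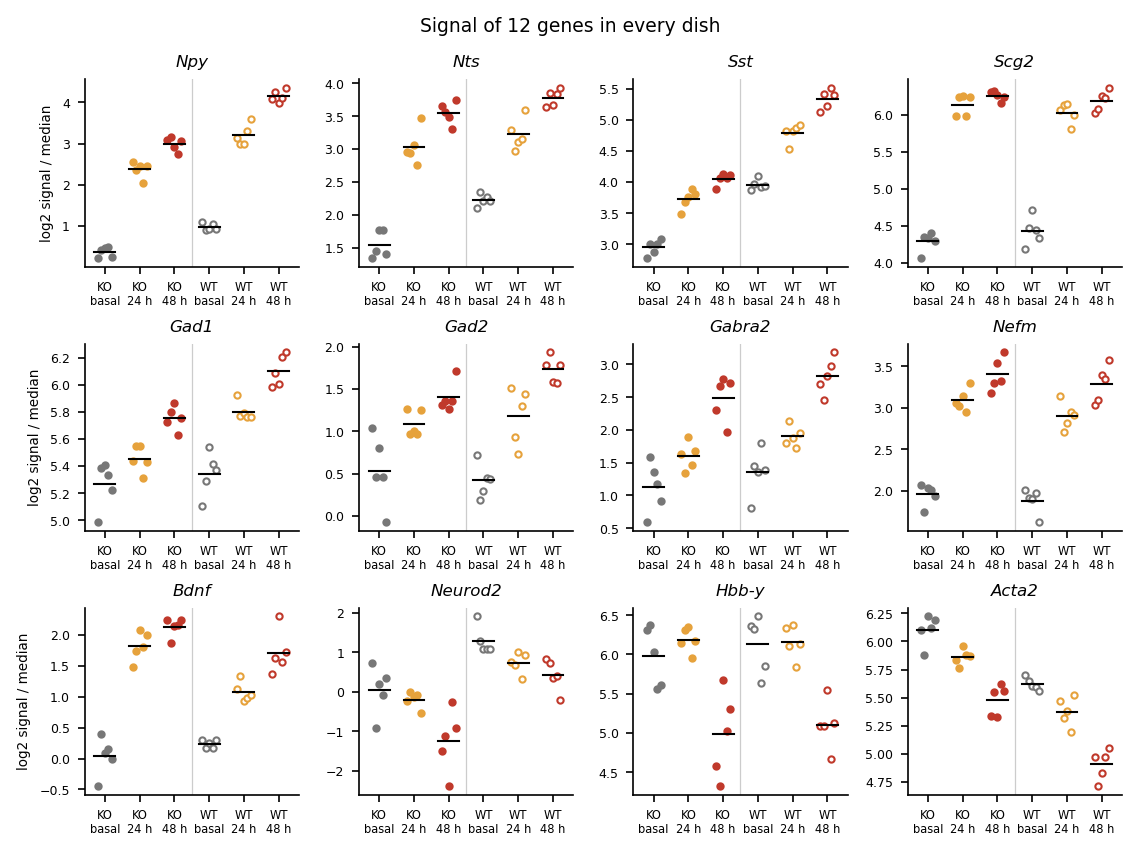
Each panel plots the log2 signal relative to the array median of 1 gene in all 30 dishes, with filled points for knockout and open points for wild-type dishes and a bar at each group's mean. In the knockout panels of Npy, Nts, Sst, Scg2, Gad1, Gad2, Gabra2, Nefm and Bdnf all 5 dishes at 48 h lie above all 5 basal dishes, those of Neurod2 and Hbb-y overlap, and those of Acta2 lie below.

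Genes for proteins that store and cut these peptides rose in part. Of 15 tested granin and peptide-processing genes, 10 rose (66.7% against 19.4% of all tested genes) and 1 fell, with a median of 0.35. The number that rose was 7 with 48 h replicates 1 and 2 alone and 9 with replicates 3 to 5 alone. Scg2, which encodes secretogranin II of dense-core vesicles, read 4.06, 4.35, 4.34, 4.40 and 4.29 in basal and 6.31, 6.32, 6.27, 6.16 and 6.24 in 48 h dishes, a rise of 1.97 ± 0.08 (3.92-fold, adjusted p = 7.92e-19). The spread within each group was small against that gap. Ptprn, a membrane protein of dense-core vesicles, rose by 1.63 ± 0.11, and Qpct, the enzyme that forms pyroglutamate at peptide ends, by 1.27 ± 0.14. The prohormone convertase gene Pcsk1 read -0.79, -0.82, -0.75, -0.86 and -0.96 and then 0.49, 0.18, 0.43, 0.40 and 0.40, without overlap, a rise of 1.22 ± 0.12. Scg5, the chaperone of another convertase, rose by 0.84 ± 0.12. The chromogranins Chgb and Chga rose by 0.83 ± 0.07 and 0.82 ± 0.10, and Scg3 by 0.35 ± 0.07. The convertase gene Pcsk5 rose by only 0.24 ± 0.09 with overlapping dishes (adjusted p = 0.0494), a call lost in 16 of 24 alternative settings. Furin, a convertase of the Golgi, fell by 0.32 ± 0.11, a call lost without basal replicate 1 or 3 and without 48 h replicate 3, 4 or 5.

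Genes for GABA synthesis and its receptors rose, whereas the transcription factors of the lineage did not. Gad1 and Gad2 encode the enzymes that make GABA from glutamate. Gad1 read 4.98, 5.38, 5.41, 5.33 and 5.22 in basal and 5.72, 5.80, 5.86, 5.63 and 5.75 in 48 h dishes, a rise of 0.49 ± 0.07 (1.4-fold, adjusted p = 8.13e-06). Gad2 read 1.04, 0.46, 0.80, 0.45 and -0.08 and then 1.31, 1.35, 1.27, 1.36 and 1.71, a rise of 0.87 ± 0.15 (1.82-fold, adjusted p = 6.77e-05). Neither gene had overlapping dishes, although the basal dishes of Gad2 were widely spread. Abat, which breaks GABA down, rose by 0.52 ± 0.12, a call lost with 48 h replicates 1 and 2 alone and with the mean of its probe sets. Slc32a1, the vesicular GABA transporter, gave 0.24 ± 0.11 and did not pass (adjusted p = 0.0868), so 3 of 4 tested members of this list rose.

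All 5 tested subunits and partners of GABA-A and glycine receptors rose. With 48 h replicates 1 and 2 alone 3 rose, and with replicates 3 to 5 alone 5 did. Gabra3, Gabrb2, Gabrg3, Gabrd and Glra1 were too dim to be tested. With no filter, 5 of the 10 measured members rose. Gabra2, an alpha subunit of the GABA-A receptor, went from 0.59, 1.58, 1.36, 1.17 and 0.91 to 2.30, 2.67, 2.77, 1.97 and 2.72, a rise of 1.36 ± 0.17 with no overlap. Glrb, the beta subunit of the glycine receptor, read 1.87, 1.88, 2.09, 2.11 and 1.96 and then 2.64, 2.52, 2.87, 2.60 and 2.69, up by 0.68 ± 0.10. Its 24 h dishes had differed from basal by -0.21 ± 0.10 without passing. Gabrg1 rose by 0.74 ± 0.13, Gabrb1 by 0.48 ± 0.11 and Gphn, which encodes the scaffold gephyrin, by 0.29 ± 0.09. The Gphn call was lost with quantile normalization, scaling to the 75th percentile, the Gapdh covariate, 48 h replicates 1 and 2 alone and without basal replicate 1.

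Other interneuron markers moved in different directions. Of 6 tested, 3 rose and 1 fell. Calb1, the calcium buffer calbindin, read 2.66, 2.38, 2.61, 2.57 and 2.61 and then 3.70, 3.66, 3.90, 3.89 and 3.80, a rise of 1.22 ± 0.09 without overlap. Tacr3, the neurokinin B receptor, rose by 1.78 ± 0.15 from a basal mean of -1.63, and Reln, which encodes the secreted protein reelin, by 0.27 ± 0.08. Ackr3, a chemokine receptor of migrating interneurons, fell by 0.68 ± 0.11. Pvalb, Nos1, Htr3a, Erbb4 and Cxcr4 were too dim to be tested. None of 12 tested GABAergic lineage transcription factors rose and 3 fell, with a median of -0.20. They were Lhx8 (-0.28 ± 0.08), Meis2 (-0.27 ± 0.07) and Nr2f1 (-0.23 ± 0.07), whose sign turned to 0.02 with the values as deposited, where none of the 12 fell and 2 were higher.

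Cortical projection neuron genes that passed were also mostly lower. Of 15 tested, 1 rose and 6 fell (40% against 9.47% of all tested genes), with a median of -0.23; with the values as deposited 2 rose and 2 fell. Neurod2, a transcription factor of differentiating glutamatergic neurons, read 0.73, -0.92, 0.20, -0.08 and 0.36 in basal and -1.5, -1.13, -2.40, -0.27 and -0.90 in 48 h dishes. Basal replicate 2 lay within the range of the 48 h dishes, so the groups overlapped, and the change was -1.30 ± 0.27 (adjusted p = 0.000544). Neurod1, a related factor, fell without overlap by 0.55 ± 0.10. The progenitor factors Eomes and Neurog2 fell by 0.41 ± 0.12 and 0.40 ± 0.12, and the deep-layer factors Fezf2 and Bcl11a by 0.35 ± 0.12 and 0.25 ± 0.05. The Neurog2 call was lost without 48 h replicate 2, and the Fezf2 call without basal replicate 1 or 3 or 48 h replicate 1 or 2. Slc17a6, the vesicular glutamate transporter VGLUT2, was the member that rose, from 3.39, 3.47, 3.49, 3.35 and 3.56 to 4.45, 4.40, 4.52, 4.28 and 4.40 (0.96 ± 0.10). Of 5 tested glutamate receptor genes, the AMPA receptor subunits Gria1 and Gria2 rose by 0.65 ± 0.09 and 0.42 ± 0.08.

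Neurofilament genes and part of the synaptic genes rose. Among 20 tested genes of neurofilaments and the neuronal cytoskeleton, 6 rose and 3 fell, with a median of 0.05 near that of all tested genes. The neurofilament gene Nefm read 2.06, 1.74, 2.03, 2.01 and 1.93 in basal and 3.18, 3.29, 3.54, 3.32 and 3.67 in 48 h dishes, a rise of 1.45 ± 0.10 (2.73-fold). Nefl and Nefh, its partners in the filament, rose by 1.18 ± 0.10 and 0.68 ± 0.17. Eno2, the neuronal enolase, read 1.9, 1.76, 2.04, 1.95 and 1.95 and then 3.18, 3.13, 3.17, 3.36 and 3.17, a rise of 1.28 ± 0.07. Nefm and Eno2 dishes did not overlap. Tuba4a, an alpha tubulin, rose by 1.01 ± 0.08. The 3 members that fell were Ina, an intermediate filament gene, by 0.37 ± 0.06, Dcx, the microtubule protein doublecortin, by 0.28 ± 0.05, and Stmn1 by 0.23 ± 0.06, the last turning to 0.02 with the values as deposited. The 2 dimmer Dcx probe sets gave 0.01 and 0.03, neither past the threshold.

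Of 21 tested synaptic vesicle and exocytosis genes, 12 rose (57.1% against 19.4% of all tested genes) and none fell, with a median of 0.28. The number that rose was 7 with 48 h replicates 1 and 2 alone, 14 with replicates 3 to 5 alone and 9 with the Gapdh covariate. With no filter, 10 of the 25 measured genes rose. The vesicle GTPase Rab3c rose by 0.96 ± 0.11, the synaptotagmin Syt4 by 0.82 ± 0.09 and synaptophysin (Syp) by 0.66 ± 0.08. Snap25, part of the membrane fusion complex, went from 4.27, 4.31, 4.5, 4.35 and 4.45 to 4.93, 4.99, 5.28, 4.98 and 5.30, a rise of 0.72 ± 0.08 without overlap. Synaptic organizer genes encode secreted, membrane and scaffold proteins. Of 8 tested, 5 rose (62.5% against 19.4% of all tested genes) and none fell. Nptx2, C1ql1, Lrrtm2, Nlgn1 and Homer1 were too dim to be tested, and with no filter 5 of the 13 measured rose. Nptx1, a pentraxin that clusters AMPA receptors, read 0.32, -0.28, -0.10, 0.00 and -0.19 and then 1.78, 1.62, 2.17, 1.78 and 2.11, a rise of 1.94 ± 0.11. C1ql3 rose by 1.18 ± 0.12 and Lgi1 by 0.87 ± 0.09, all without overlap. Among 22 tested voltage-gated channel genes 7 rose (31.8% against 19.4% of all tested genes) and 1 fell. With no filter, 4 of the 38 measured channel genes rose. Among the tested ones 8 rose with 48 h replicates 3 to 5 alone and 3 with replicates 1 and 2 alone. The potassium channel gene Kcna1 rose by 0.66 ± 0.13 and the channel partner Kcnip1 by 0.65 ± 0.10. Cacna1g, a T-type calcium channel, fell by 0.51 ± 0.15, a call lost with those 2 replicates alone and with the Gapdh covariate.

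**Figure D3:**
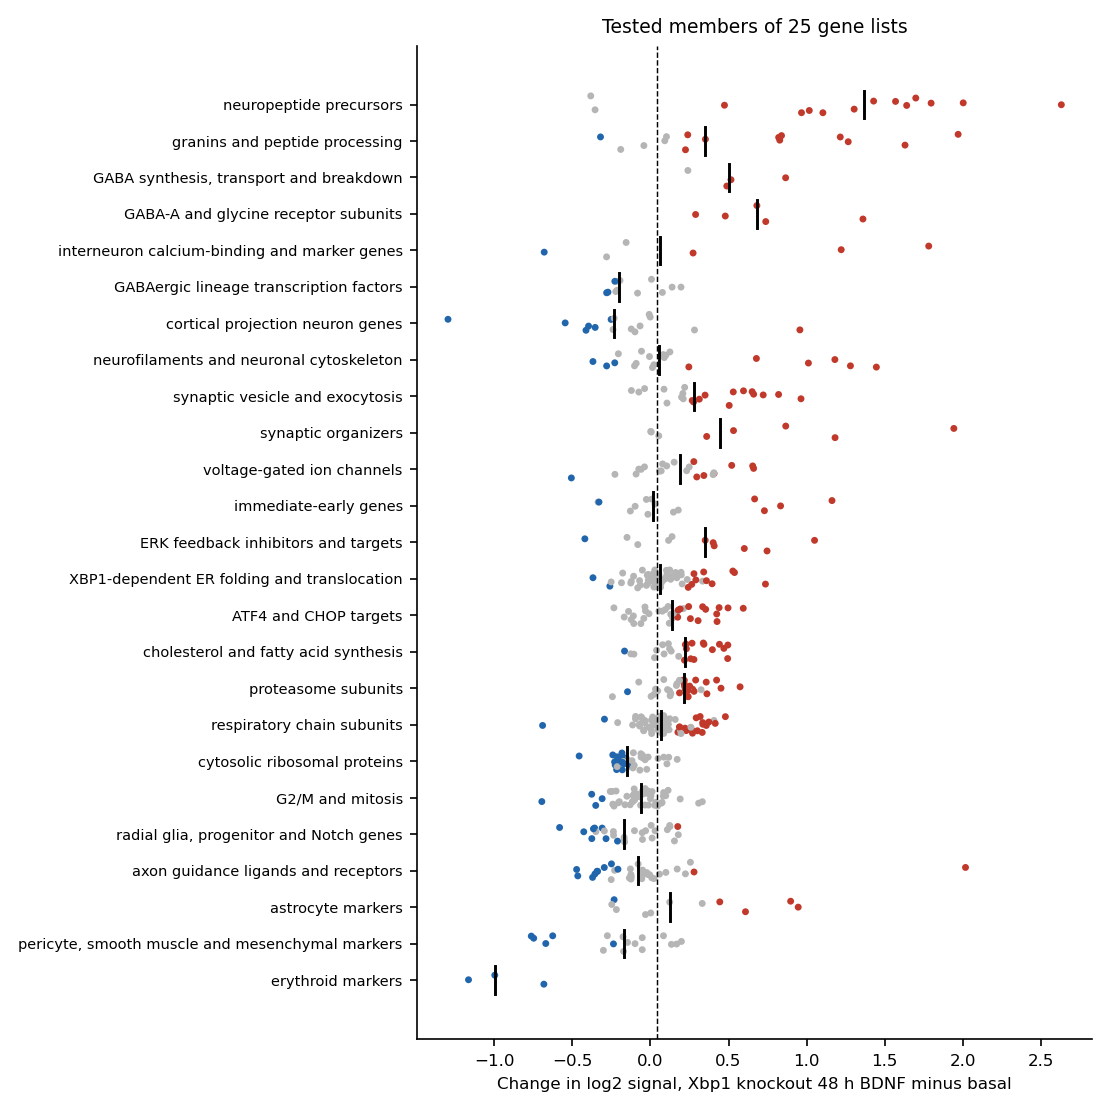
Every point is a tested member of 1 of 25 gene lists, placed by its change in log2 signal between knockout 48 h and basal dishes; red members were higher, blue members lower and grey members did not pass. Black bars mark each list's median and the dashed line the median of all tested genes (0.045), with neuropeptide precursors farthest to the right (median 1.37) and the 3 tested erythroid genes farthest to the left (median -1.0).

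The ligand's own gene rose and its receptor did not pass the threshold. Bdnf read -0.45, 0.40, 0.09, 0.15 and 0.00 in basal and 2.25, 1.87, 2.15, 2.16 and 2.24 in 48 h dishes, a rise of 2.09 ± 0.14 (4.26-fold, adjusted p = 1.65e-13) with no overlap. Its dimmer probe set rose by 1.07, so the size of the rise depends on the probe set. Ntrk2, which encodes TrkB, differed by -0.16 ± 0.08 (adjusted p = 0.143) and turned to 0.09 with the values as deposited. Sorcs2, a sorting receptor related to the neurotrophin system, fell by 0.35 ± 0.13, a call lost in 12 of 25 alternative settings. Of 11 tested ERK feedback inhibitors and targets, 6 rose (54.5% against 19.4% of all tested genes) and 1 fell. With no filter, 6 of the 16 measured rose. Dusp6, the phosphatase that inactivates ERK, read 0.25, 0.16, 0.53, 0.46 and 0.47 and then 1.33, 1.45, 1.46, 1.26 and 1.62, up by 1.05 ± 0.08. Spry2, a feedback inhibitor upstream of ERK, rose by 0.75 ± 0.09 and Dusp14 by 0.60 ± 0.13, whereas the cyclin gene Ccnd1 fell by 0.42 ± 0.11. The 2 other Ccnd1 probe sets gave -0.03 and -0.06 and did not pass.

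A few immediate-early genes, a class that responds to stimulation within minutes to hours, were higher in the 48 h dishes. Of 14 tested, 4 rose (28.6% against 19.4% of all tested genes) and 1 fell (7.14% against 9.47%). The median of the list was 0.02, below the 0.045 of all tested genes. Fosb, Fosl1, Fosl2, Junb, Egr2, Egr3, Egr4, Arc and Nr4a3 were too dim to be tested. With no filter, 6 of the 23 measured members rose. Fos read 3.14, 3.35, 3.47, 3.25 and 3.43 in basal and 4.5, 4.61, 4.46, 4.31 and 4.58 in 48 h dishes, a rise of 1.16 ± 0.08. Egr1 went from 2.79, 2.62, 2.74, 2.76 and 2.58 to 3.46, 3.36, 3.65, 3.45 and 3.73, a rise of 0.83 ± 0.09. Both genes separated all dishes of the 2 groups. The transcription factor genes Ier2 and Maff rose by 0.73 ± 0.09 and 0.67 ± 0.15.

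Genes of the kind that XBP1 is known to drive rose in a share near that of all tested genes. Of 59 tested genes of ER folding and translocation, 10 rose (16.9% against 19.4% of all tested genes) and 2 fell (3.39% against 9.47%). The median of the list was 0.06, against 0.07 in the wild type, and no member passed the threshold for a genotype difference. The number that rose was 3 with 48 h replicates 1 and 2 alone, 13 with replicates 3 to 5 alone and 4 with the Gapdh covariate. The ER stress response element (ERSE), to which XBP1 and ATF6 bind, is shown in capitals in the promoter of Hspa5, the ER chaperone BiP, because this gene is the standard reporter of the pathway (chr2:34771960-34772089, plus strand, ending at the base before the start).
Hspa5: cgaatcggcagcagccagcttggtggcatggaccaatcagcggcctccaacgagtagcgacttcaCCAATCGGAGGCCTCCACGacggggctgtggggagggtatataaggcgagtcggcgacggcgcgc

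The element stands in 37 of 32851 promoters (0.113%) and in 9 of 53 promoters of the listed ER genes (17.0%), in each case on either strand of the same window. None of those 9 genes passed the threshold, which 28.9% of all tested genes did, and their changes ran from -0.08 for Calr to 0.24 for Ero1b. Hspa5 read 5.97, 6.10, 6.17, 6.12 and 6.12 in basal and 6.22, 6.24, 6.18, 6.15 and 6.30 in 48 h dishes. Its groups overlapped, and the difference was 0.12 ± 0.06 (adjusted p = 0.104). The members that rose included signal peptidase genes, whose enzyme removes the leader from proteins entering the ER. Sec11c, a catalytic subunit, read 2.17, 2.45, 2.33, 2.29 and 2.29 and then 3.00, 2.93, 3.14, 3.01 and 3.13, a rise of 0.74 ± 0.07 without overlap. The other catalytic subunit, Sec11a, differed by -0.0030 ± 0.06 and did not pass (adjusted p = 0.974). Spcs1, Spcs2 and Spcs3, further subunits, rose by 0.34 ± 0.08, 0.28 ± 0.08 and 0.29 ± 0.10. A second, dimmer probe set gave 0.06 for Spcs1 and -0.02 for Spcs2, neither past the threshold. The calls of Spcs1 and Spcs2 were lost with the mean of probe sets. Sec11a, Spcs2 and Spcs3 were named after their values were seen. Calls of Spcs2 and Spcs3 were lost with the Gapdh covariate and with 48 h replicates 1 and 2 alone. Fkbp2, a prolyl isomerase of the ER, rose by 0.54 ± 0.08 and the ER membrane protein Wfs1 by 0.53 ± 0.15, while the disulfide isomerase Pdia5 fell by 0.37 ± 0.09.

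Other metabolic and stress groups moved by small amounts. ATF4 and CHOP are factors of the amino acid and ER stress response. Of 34 tested targets, 13 rose (38.2% against 19.4% of all tested genes) and none fell. The number that rose was 5 with 48 h replicates 1 and 2 alone, 15 with replicates 3 to 5 alone and 1 with the Gapdh covariate. Slc7a3, an amino acid transporter, rose by 0.59 ± 0.14 and Mthfd2, a mitochondrial folate enzyme, by 0.43 ± 0.09. Of 25 tested cholesterol and fatty acid synthesis genes 14 rose (56% against 19.4%) and 1 fell. With replicates 1 and 2 alone 7 rose, and with replicates 3 to 5 alone 10 did. Those that rose included Pmvk (0.50 ± 0.07) and Msmo1 (0.49 ± 0.08). Proteasome subunits rose in 18 of 35 cases (51.4% against 19.4%) and fell in 1. With replicates 1 and 2 alone 6 rose, with replicates 3 to 5 alone 17 and with the Gapdh covariate 4. Psmc5, an ATPase of the regulatory particle, rose by 0.57 ± 0.10. Among 74 respiratory chain subunits 19 rose (25.7% against 19.4% of all tested genes) and 2 fell, with Atp5g1 up by 0.48 ± 0.07. Of these subunits 9 rose with replicates 1 and 2 alone and 21 with replicates 3 to 5 alone. Of 41 lysosome and proton pump genes 12 rose (29.3% against 19.4% of all tested genes) and 3 fell, with the alpha-galactosidase gene Gla up by 0.78 ± 0.11. In this list 4 rose with replicates 1 and 2 alone, 14 with replicates 3 to 5 alone and 6 with the Gapdh covariate. Cytosolic ribosomal protein genes fell in 19 of 43 cases and none rose (median -0.15), yet 7 fell with the Gapdh covariate, and with the values as deposited 11 rose and none fell. Rpl37 fell by 0.46 ± 0.12 with overlapping dishes.

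Among 24 tested antioxidant genes of the kind controlled by NRF2, 7 rose (29.2% against 19.4% of all tested genes) and 1 fell. The number that rose was 2 with 48 h replicates 1 and 2 alone and 8 with replicates 3 to 5 alone. Srxn1 encodes sulfiredoxin, which repairs oxidized peroxiredoxins, and it is known as a target of both NRF2 and AP-1. Its promoter is shown because the window holds 2 matches to the AP-1 motif TGANTCA, in capitals (chr2:152105394-152105523, plus strand), and the promoter of Nts is shown beside it for its single match (chr10:102490419-102490648, minus strand).
Srxn1: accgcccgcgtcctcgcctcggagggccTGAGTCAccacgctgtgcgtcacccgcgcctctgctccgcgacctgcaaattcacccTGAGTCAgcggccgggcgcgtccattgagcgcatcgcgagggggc
Nts: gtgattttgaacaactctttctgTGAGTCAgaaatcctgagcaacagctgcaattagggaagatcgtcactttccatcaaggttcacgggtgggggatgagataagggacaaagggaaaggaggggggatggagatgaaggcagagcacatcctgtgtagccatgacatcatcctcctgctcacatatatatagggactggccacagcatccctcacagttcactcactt

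AP-1 matches stand in 6.75% of 32851 promoters. Counted by gene, these are 7.82% of all genes with a promoter sequence, 5.09% of the tested ones, 6.29% of those that rose and 6.63% of those that fell. Srxn1 read 0.10, 0.53, 0.33, 0.52 and 0.67 in basal and 1.77, 1.81, 1.69, 1.82 and 1.63 in 48 h dishes, a rise of 1.32 ± 0.12 (2.49-fold). Its 48 h dishes were closely grouped and all above the basal ones. Akr1b8, an aldo-keto reductase, rose by 0.96 ± 0.09.

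Among the remaining large rises were Sema3e (2.02 ± 0.16), a secreted guidance cue, Ecel1 (1.64 ± 0.11), a neuronal membrane metalloprotease, Dlk1 (1.48 ± 0.13), an imprinted membrane ligand, and the unnamed transcript 2010204K13Rik (1.53 ± 0.09). Sema3e read -0.51, 0.21, -0.17, 0.06 and 0.02 and then 1.95, 2.04, 1.95, 1.61 and 2.16, so that no dish overlapped. Of 33 tested axon guidance genes 2 rose, Sema3e and Unc5b, and 9 fell (27.3% against 9.47% of all tested genes); with the values as deposited 5 rose and none fell. The semaphorin co-receptor Nrp2 and the netrin receptor Unc5c fell by 0.47 ± 0.09 each. Of 19 tested imprinted genes 4 rose (21.1%) and 2 fell (10.5%), shares near the 19.4% and 9.47% of all tested genes, with Mkrn3 up by 1.18 ± 0.16 and Igf2 down by 0.35 ± 0.09.

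Progenitor genes that passed were mostly lower, and few cell cycle genes passed. Of 28 tested genes of radial glia, progenitors and Notch signalling, 1 rose and 8 fell (28.6% against 9.47% of all tested genes, median -0.17). The number that fell was 4 with 48 h replicates 1 and 2 alone and also 4 with replicates 3 to 5 alone. With the values as deposited 1 fell and 5 rose. Notch3 fell by 0.58 ± 0.11, while the calls of Msi1 (-0.43 ± 0.15) and Hes1 (-0.36 ± 0.13) were lost in 11 of 24 and 9 of 25 settings. Among 41 G1/S genes 2 rose (4.88% against 19.4% of all tested genes) and 3 fell (7.32% against 9.47%). With the values as deposited 9 rose and none fell. The number that fell was 6 with the Gapdh covariate, 8 after quantile normalization and 9 after scaling to the 75th percentile. Among 49 genes of G2/M and mitosis none rose and 4 fell (8.16% against 9.47% of all tested genes). With the values as deposited 5 rose and 1 fell. The mitotic factor Foxm1 fell by 0.70 ± 0.16 with overlapping dishes, the primase subunit Prim2 by 0.50 ± 0.11, and the histone mRNA binding protein gene Slbp rose by 0.64 ± 0.13. Of 11 tested genes that respond to BMP, 3 fell (27.3% against 9.47% of all tested genes) and none rose. Id2, an inhibitor of differentiation, fell by 0.61 ± 0.12 and Msx1 by 0.35 ± 0.13. The Msx1 call was lost in 14 of 25 settings. The retinoic acid binding protein genes Crabp2 and Crabp1 fell by 0.81 ± 0.15 and 0.40 ± 0.13, and Rbp4, the plasma retinol carrier, rose by 0.93 ± 0.13. Of 8 tested retinoid genes 3 rose and 2 fell. With 48 h replicates 1 and 2 alone 1 rose, and with replicates 3 to 5 alone 2 did. Of 19 tested p53 targets and apoptosis genes 2 rose and 7 fell (36.8% against 9.47% of all tested genes). The number that fell was 2 with 48 h replicates 1 and 2 alone, 5 with replicates 3 to 5 alone and 4 with the Gapdh covariate. With the values as deposited 5 rose and none fell. Examples were Bcl2l11, the death gene Bim, up by 0.75 ± 0.14 and Mdm2 down by 0.38 ± 0.08.

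The largest falls came from genes of other cell types as well as neuronal ones. Hba-x, an embryonic alpha-like globin, read 0.46, 0.54, -0.04, -0.71 and -0.21 in basal and -1.15, -0.94, -1.02, -1.0 and -1.68 in 48 h dishes, a fall of 1.16 ± 0.24 (2.24-fold) with no overlap. Hbb-y, an embryonic beta-like globin, read 6.32, 6.37, 6.03, 5.55 and 5.61 and then 4.58, 4.32, 5.67, 5.03 and 5.31. One 48 h dish, replicate 3, lay within the basal range, and the fall was 1.0 ± 0.19 (adjusted p = 0.000239). Hbb-bh1 fell by 0.68 ± 0.24, a call lost in 11 of 24 settings, so all 3 tested erythroid markers of 12 measured fell. The summed linear signal of the 12 ranged from 50.4 to 88.1 array medians in basal and from 22.7 to 54.1 in 48 h dishes, and the other 9, among them Gata1 and Alas2, were below the array median in all 10 dishes. From 24 h to 48 h, within BDNF, Hbb-y differed by -1.20 ± 0.19 (adjusted p = 0.000248), whereas 24 h against basal gave 0.21 ± 0.19 and did not pass.

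Some contractile and connective tissue genes fell too. Of 17 tested markers of pericytes, smooth muscle and mesenchyme, of 21 measured, 5 fell (29.4% against 9.47% of all tested genes) and none rose. The number that fell was also 5 with 48 h replicates 1 and 2 alone and with replicates 3 to 5 alone. Acta2, smooth muscle actin, read 6.10, 5.88, 6.23, 6.12 and 6.19 in basal and 5.33, 5.55, 5.32, 5.62 and 5.56 in 48 h dishes, a fall of 0.63 ± 0.07. Ogn, an extracellular matrix proteoglycan, went from 5.14, 5.07, 5.14, 5.24 and 5.28 to 4.22, 4.42, 4.42, 4.57 and 4.53, a fall of 0.75 ± 0.08. All 48 h dishes of these genes lay below all basal dishes. Myl9 (-0.76 ± 0.11) and Tpm2 (-0.79 ± 0.10) encode contractile proteins, and Col14a1 (-0.71 ± 0.08) and Fmod (-0.67 ± 0.13) matrix proteins. Col1a2 fell by 0.24 ± 0.07 and turned to 0.01 with the values as deposited. The summed signal of these markers was 318 to 386 array medians in basal and 260 to 299 in 48 h dishes, and Rgs5, Anpep, Des and Cnn1 were below the array median in all 10.

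Further falls were those of the interferon-response genes Ifit1 (-0.87 ± 0.13) and Oas1c (-0.71 ± 0.11), the telencephalon marker Six3 (-0.51 ± 0.11), and Zfp185 (-0.92 ± 0.16), Sez6l (-0.80 ± 0.19), Kap (-0.74 ± 0.17), Tcl1b3 (-0.75 ± 0.17), Recql5 (-0.71 ± 0.16) and Plekhn1 (-0.70 ± 0.20). The calls of Kap, Tcl1b3, Recql5 and Plekhn1 were lost with 48 h replicates 1 and 2 alone and with the Gapdh covariate. Abcb8 fell by 0.92 ± 0.21 on its brighter probe set, whereas a second one rose by 0.59. The largest fall of all, -1.47 ± 0.35 for Il17re, had overlapping dishes, was lost with 48 h replicates 1 and 2 alone and with the Gapdh covariate, and was named after its value was seen. Where a gene has several probe sets the brightest was used. A dimmer one missed the threshold for Neurod1 (-0.11), Bcl11a (0.12), Gria2 (-0.15), Nptx1 (0.18), Mthfd2 (0.19), Prim2 (-0.06) and Mdm2 (-0.03). The same held for Id2 (-0.35), Stmn1 (-0.26), Col14a1 (-0.42), Col1a2 (-0.20), Igf1 (0.14), Spcs1 (0.06) and Spcs2 (-0.02).

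Markers of glia and phagocytes were mixed. Of 11 tested astrocyte markers, of 18 measured, 4 rose (36.4% against 19.4% of all tested genes) and 1 fell (9.09% against 9.47%). Aldh1l1, a folate enzyme of astrocytes, read -0.78, -0.59, -1.09, -0.82 and -0.64 and then 0.06, 0.06, -0.02, 0.51 and 0.19, a rise of 0.95 ± 0.15 that separated all dishes. Sparcl1 rose by 0.61 ± 0.11, and Clu and Ndrg2 are given below. Gja1, the brightest member, was the one that fell, from a mean of 5.59 to 5.35. This call was lost with 48 h replicates 1 and 2 alone and with the Gapdh covariate. Glul (3.5 to 3.28) and Fgfr3 (1.36 to 1.11) were lower without passing, and 7 of the 11 tested members had a positive change. The defining astrocyte genes Gfap, Aqp4, Slc1a2 and S100b lay below the array median in all 10 dishes. The summed signal of the list, to which Gja1 adds most, was 83.4 to 96.9 in basal and 83.4 to 93.9 array medians in 48 h dishes. Cd68, a lysosomal protein of phagocytes, read -0.97, -1.91, -1.29, -1.27 and -1.02 and then 0.09, 0.29, 0.26, 0.11 and -0.14, a rise of 1.42 ± 0.19. Cd14 and Cd52 fell by 0.56 ± 0.17 and 0.48 ± 0.14, the Cd14 call being lost without basal replicate 1. Thus 1 of 10 tested phagocyte markers rose and 2 fell, while Cx3cr1, P2ry12 and Trem2 lay below the median in all 10 dishes and the summed signal of the 21 measured was 30.6 to 37.3 in basal and 28.2 to 33.2 in 48 h dishes. Olig1 rose by 0.70 ± 0.18 among 4 tested oligodendrocyte lineage markers. None of the 4 tested endothelial and 3 tested choroid plexus markers passed; the summed signal of the latter ranged from 7.11 to 46.8 in basal and from 13.3 to 43.5 in 48 h dishes. Of 5 tested Cajal-Retzius markers 1 (Reln) rose and 2 fell.

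The 24 h knockout dishes, lysed on the same day as the basal ones, share those basal arrays, so their values are given side by side only. At 24 h 856 genes were called (11.5%), 443 higher (5.96%) and 413 lower (5.55%). Npy changed by 2.02 ± 0.10 at 24 h and 2.63 at 48 h, Scg2 by 1.85 and 1.97, Bdnf by 1.78 and 2.09, Nptx1 by 1.82 and 1.94, and Fos by 1.12 and 1.16. For these genes most of the 48 h value was already present on day 4. Other genes reached the threshold between the BDNF time points, where 732 genes were called (9.84%), 557 higher (7.49%) and 175 lower (2.35%). C1ql3 stood at 0.24 at 24 h and 1.18 at 48 h, and the 2 times differed by 0.94 ± 0.12 (adjusted p = 8.98e-06). Tuba4a stood at 0.28 and 1.01, Snap25 at 0.18 and 0.72, Aldh1l1 at -0.01 and 0.95, and Gabra2 at 0.48 and 1.36, each with a difference between the times past the threshold (adjusted p = 9.90e-07, 0.000137, 0.000215 and 0.00160). Gad1 stood at 0.19 at 24 h, which did not pass, and at 0.49 at 48 h, and these also differed (adjusted p = 0.0108). Gad2, at 0.56 and 0.87, did not differ between the times past the threshold (adjusted p = 0.195). Egr1 went the other way, with 1.14 at 24 h and 0.83 at 48 h (adjusted p = 0.0200).

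The wild-type 48 h response, from a pool of 4 Xbp1 +/+ embryos and with no array in common, called 2693 genes (36.2%), 1524 higher (20.5%) and 1169 lower (15.7%). Both genotypes had 1056 genes higher, which is 73.2% of those higher in the knockout and 69.3% of those higher in the wild type. They had 511 genes lower, 72.6% of the knockout's and 43.7% of the wild type's, and 1 gene was called in each opposite direction. Across the 7436 genes the changes of the 2 genotypes had a Pearson correlation of 0.833, given as a description because genes are not independent and dishes of either genotype were lysed a day later at 48 h than at baseline. The difference between the responses themselves was past the threshold for 10 genes (0.134%), 5 with a higher (0.0672%) and 5 with a lower signed change in the knockout (0.0672%); 515 genes had an unadjusted p under 0.05. The response of Npy was 2.63 in the knockout and 3.18 in the wild type, a difference of -0.55 that did not pass (adjusted p = 0.185). Nor did the differences of Gad2 (-0.44 ± 0.21, adjusted p = 0.695), Gad1 (-0.27 ± 0.10, adjusted p = 0.527), Pnoc (-0.47, adjusted p = 0.218), Sst (-0.28, adjusted p = 0.547) and Bdnf (0.62, adjusted p = 0.363), which does not show that the responses were equal.

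**Figure D4:**
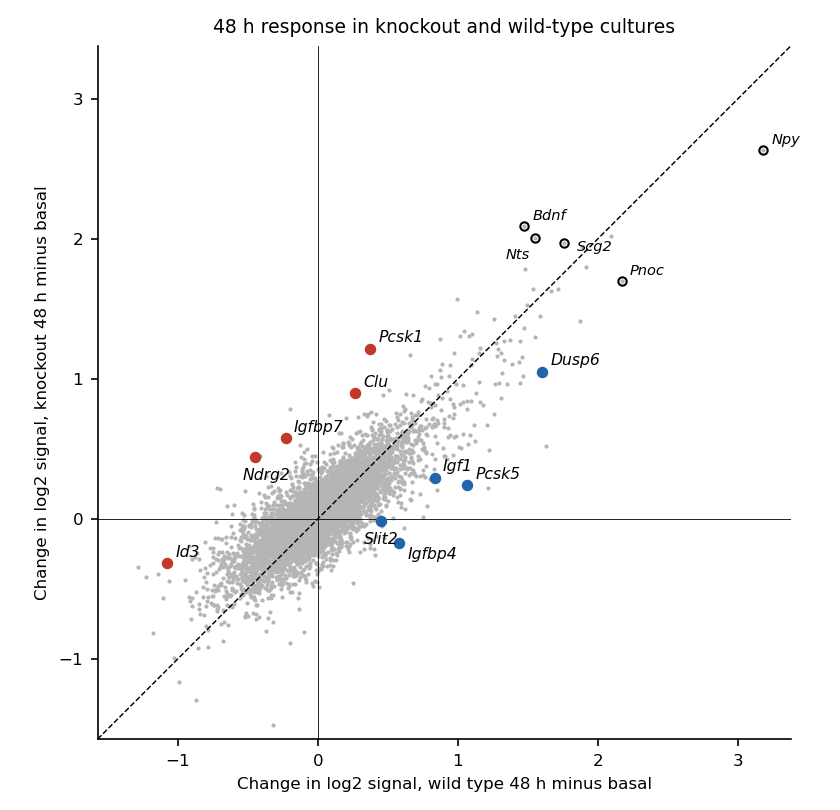
Each point is a tested gene, with its change in log2 signal after 48 h in the wild type on the x axis and in the knockout on the y axis; the dashed line marks equal changes. The 10 genes whose difference passed the threshold are blue where the signed change was lower in the knockout (Pcsk5, Igf1, Dusp6, Igfbp4, Slit2) and red where it was higher (Pcsk1, Clu, Ndrg2, Igfbp7, Id3), and 5 other genes are circled for orientation.

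Between the genotypes 2073 genes differed in basal dishes (27.9%), with 684 higher (9.2%) and 1389 lower (18.7%) in the knockout, and 1791 at 48 h (24.1%), with 720 higher (9.68%) and 1071 lower (14.4%). These counts, like the response differences, set 1 pool against 1 pool. An effect of Xbp1 loss cannot be told apart from a difference between the pools. Of the 5 genes with a lower signed change in the knockout, Pcsk5 had the lowest adjusted p. Its knockout dishes read 0.85, 0.99, 0.89, 0.76 and 1.16 and then 1.19, 1.16, 1.19, 1.21 and 1.10, and the wild-type dishes 0.08, 0.36, 0.46, 0.32 and 0.49 and then 1.24, 1.5, 1.34, 1.41 and 1.57. The responses were 0.24 and 1.07, which differed by -0.83 ± 0.13 (adjusted p = 0.00264). Without BDNF the knockout was higher by 0.59 (adjusted p = 7.25e-06), and at 48 h the genotypes differed by -0.24 (adjusted p = 0.0518). Igf1, a growth factor, read 3.23, 3.13, 3.21, 3.25 and 3.23 and then 3.58, 3.43, 3.44, 3.47 and 3.61 in the knockout, and 2.64, 2.70, 2.82, 2.49 and 2.69 and then 3.24, 3.55, 3.53, 3.62 and 3.57 in the wild type. Its responses of 0.29 and 0.83 differed by -0.54 ± 0.10 (adjusted p = 0.0163), with basal levels 0.54 higher in the knockout and means of 3.5 in both genotypes at 48 h. Pcsk5 and Igf1 thus differed between genotypes in the basal dishes and came close at 24 h. The 24 h means in knockout and wild type were 1.09 and 0.99 for Pcsk5 and 3.35 and 3.39 for Igf1. At 48 h the means of Igf1 were still close, whereas all 5 knockout dishes of Pcsk5 lay below all 5 wild-type dishes. The difference calls of both genes held when any single array was left out. Both were lost with the values as deposited and with 48 h replicates 1 and 2 alone. The Igf1 call was also lost with the mean of probe sets and at a threshold of 0.01.

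Dusp6 started alike, at 0.37 in the knockout and 0.25 in the wild type, and reached 1.43 and 1.85, so its responses of 1.05 and 1.60 differed by -0.55 ± 0.11 (adjusted p = 0.0417). Its wild-type 48 h dishes, at 1.87, 1.84, 1.93, 1.85 and 1.78, were all above those of the knockout. Igfbp4, an IGF binding protein, changed by -0.17 in the knockout, where the sign turned to 0.08 with the values as deposited, and by 0.58 in the wild type (difference -0.75 ± 0.15, adjusted p = 0.0354), with the knockout 2.05 higher in basal dishes. Slit2, a guidance cue, changed by -0.02 and 0.45 (difference -0.47 ± 0.10, adjusted p = 0.0490). The sign of the knockout value was not fixed, as it turned with the values as deposited, with the mean of probe sets, with 48 h replicates 3 to 5 alone and without basal replicate 3 or 4.

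The signed change was higher in the knockout for Pcsk1 and Clu, which rose more there, for Ndrg2 and Igfbp7, whose values had opposite signs in the genotypes, and for Id3, which fell less. Pcsk1, whose knockout dishes are given above, read -0.31, -0.66, -0.35, -0.61 and -0.50 and then -0.45, 0.09, 0.05, -0.12 and -0.13 in the wild type, a response of 0.38 against 1.22 (difference 0.84 ± 0.17, adjusted p = 0.0356). At 48 h all 5 knockout dishes were above all 5 wild-type dishes, and in the basal dishes all 5 were below. Clu, which encodes the secreted chaperone clusterin, read 2.90, 2.48, 2.60, 2.66 and 2.90 and then 3.65, 3.55, 3.58, 3.59 and 3.64, a rise of 0.90 ± 0.09, against 0.27 in the wild type (difference 0.63 ± 0.13, adjusted p = 0.0354). It stayed lower in the knockout, by 1.58 in basal and 0.95 in 48 h dishes. Ndrg2, expressed in astrocytes, changed by 0.44 and -0.45 (difference 0.89 ± 0.19, adjusted p = 0.0435), and Igfbp7 by 0.58 and -0.23 (difference 0.81 ± 0.18, adjusted p = 0.0486). Id3, an inhibitor of differentiation that responds to BMP, fell by 0.32 in the knockout and by 1.08 in the wild type (difference 0.76 ± 0.16, adjusted p = 0.0478).

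**Figure D5:**
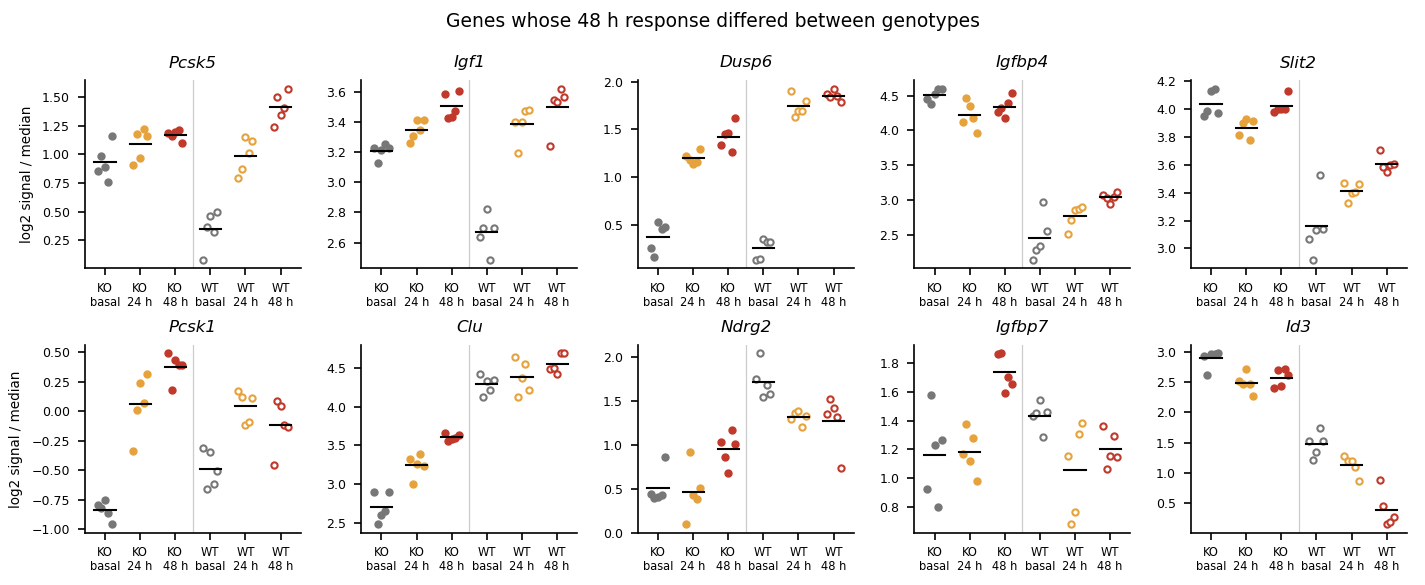
Each panel plots 1 of the 10 genes by its log2 signal relative to the array median in all 30 dishes, with filled points for knockout, open points for wild-type dishes and a bar at each group's mean. The upper row holds the 5 genes with a lower signed change in the knockout. Pcsk5 and Igf1 start higher in the knockout and lie near the wild type at 24 h. The lower row holds the 5 with a higher signed change, among them Id3, which fell in both genotypes.

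These calls were close to the threshold. Leaving out 1 array at a time gave between 2 and 13 called genes, and apart from Pcsk5 and Igf1 each of the 10 lost its call when some single array was left out, from 11 of 20 arrays for Clu to 19 of 20 for Slit2. Each of the 10 kept its sign in every such fit.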

How the data were processed

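The deposited values are linear signal intensities, 1 column per array, from 30 Affymetrix arrays; per the submitters' processing notes they were made with MAS5, whose version is not given in the sources used here. Per the labels, RNA was amplified by two-cycle labelling. Array medians ran from 81.9 to 138 intensity units, and the number of arrays limits the precision.

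Each array was divided by its median, values were floored at 0.1 of that median, and log2 was taken. Of 22690 probe sets, 20393 had 1 gene symbol, 691 several and 1606 none. The brightest probe set stood for each of 12394 genes, and the upper 60% by mean over all 30 arrays (7436 genes) was tested in 1 fit over 6 groups with limma 3.58.1 (trend, Benjamini-Hochberg, adjusted p under 0.05) in R 4.3.3; tables and figures used Python 3.11.15, pandas 2.3.3 and matplotlib 3.10.9. Genes named are the 15 largest rises and falls without overlap past the threshold, all genes with a genotype difference, and tested list members (the largest 6 in each direction where more passed); those outside the rule are marked. Members and lists were chosen with earlier results of these data known.

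On simulated data for the knockout 48 h comparison (7436 genes, 50 changed per size), 40% of 1.2-fold, 74% of 1.5-fold, 98% of 2-fold and 100% of 3-fold changes were recovered. Far fewer genes changed there than were called in the data, so these shares need not hold for the real comparison. Replicate numbers do not pair dishes: deviations of same-numbered basal and 48 h arrays correlated at 0.021, 0.027, 0.13, -0.12 and -0.17. Alternatives covered scaling, filter, floor, probe sets, model, threshold and left-out arrays.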

Additional observations from a re-analysis of the deposited data

Results flagged for a closer look

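The response to 48 h of BDNF differed between the genotypes by the test of the difference itself for 10 genes. Genotype and pool cannot be told apart in this test. Knockout minus wild type was -0.8293 for Pcsk5, -0.7511 for Igfbp4, -0.5499 for Dusp6, -0.5388 for Igf1 and -0.4664 for Slit2 on the log2 scale, and 0.8924 for Ndrg2, 0.8402 for Pcsk1, 0.808 for Igfbp7, 0.76 for Id3 and 0.6309 for Clu.

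In 22 of 312 groups of 5 dishes, 1 dish lay far from the other 4, measured as its gap to the nearest dish over the range of the group; chance alone gives about 1 in 20 groups. Among knockout basal dishes, replicate 1 stood apart for Spcs1 (0.985), Cd14 (0.787) and Slbp (0.749), and replicate 2 for Id3 (0.896) and Olig1 (0.722). Basal replicate 3 stood apart for Fkbp2 (0.873), Lgi1 (0.823), Tac1 (0.812), Furin (0.756) and Six3 (0.721), and replicate 5 for Ndrg2 (0.896), Ina (0.758) and Lhx8 (0.735). Among the 48 h dishes, replicate 1 stood apart for Sst (0.712), replicate 2 for Ifit1 (0.779) and Bdnf (0.737), and replicate 3 for Lhx8 (0.842). Replicate 4 did so for Eno2 (0.795) and Chga (0.764), and replicate 5 for Slit2 (0.829), Gad2 (0.785) and Hba-x (0.71).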

How the results depend on the processing

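Of 145 called genes followed through the alternatives, 89 kept their call in all of the 26 alternative settings of the 48 h comparison that held them. The 2147 called genes became 3732 with the values as deposited, 1263 at a threshold of 0.01, 1193 with 48 h replicates 1 and 2 alone and 992 with a Gapdh ratio covariate, and ranged from 1722 to 2129 when 1 array was left out. With the replicate number as a block there were 2320, and the genotype difference had 12 in place of 10 genes; the numbers do not pair the dishes, and only replicate 3 correlated best with its own number. The genotype difference had 0 genes with the values as deposited, 5 with no filter, 3 in the upper 40%, 4 with the mean of probe sets, 4 with no trend, 33 with array weights, 1 at a threshold of 0.01, 1 with 48 h replicates 1 and 2 alone, 5 with replicates 3 to 5 alone, and 2 to 13 when 1 array was left out. The causes were not tested.

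Signs turned for some genes, and 3 of them, Nr2f1, Stmn1 and Col1a2, had been called lower. With the values as deposited Nr2f1 was 0.02025, Stmn1 0.01963, Ntrk2 0.08918, Igfbp4 0.07796, Slit2 0.2329 and Col1a2 0.01139. Xbp1 was -0.01164 after quantile normalization and -0.0359 with the mean of probe sets. Slit2 was 0.119 with the mean of probe sets, 0.006524 with 48 h replicates 3 to 5 alone, 0.008436 without basal replicate 3, and from -0.04167 to 0.01282 over single arrays left out. Hcrt was 0.03879 with 48 h replicates 1 and 2 alone. Signals near background limit the dim genes, among them Pcsk1, Gal and Rbp4.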
